A study of Drosophila melanogaster with 36 samples.

Results

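Nuclear-encoded genes of the mitochondrial respiratory chain were followed through RNA-seq of cells sorted from Drosophila melanogaster wing and haltere imaginal discs, the larval tissues that form these appendages. The genes were taken by symbol: those starting with ND-, Sdh (A to D), UQCR-, COX and a digit, or ATPsyn. This gave 87 of the 17807 gene IDs in the count tables, of which 63 were core subunit genes and 24 were copies with symbols ending in L, or in L and a digit, a naming used for duplicates that are mostly expressed in testis. The core genes comprised 34 of complex I, 4 of complex II, 6 of complex III, 8 of complex IV and 11 of complex V, and the copies comprised 6, 3, 3, 8 and 4 in the same order. The symbol ND-MNLL was kept among the core genes because its letters name a subunit.

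The respiratory chain sits in the inner mitochondrial membrane. Complex I (NADH dehydrogenase) and complex II (succinate dehydrogenase, which is also an enzyme of the TCA cycle) feed electrons to ubiquinone, complex III passes them to cytochrome c, and complex IV (cytochrome c oxidase) passes them to oxygen. Complexes I, III and IV pump protons, and complex V (ATP synthase) makes ATP from the returning protons. Most subunits are encoded in the nucleus and imported, while a small hydrophobic core of every complex but complex II is encoded by mitochondrial DNA (mtDNA), so that the complexes are built from the products of separate genomes. In larval discs, which grow fast, glycolysis and respiration are both in use.

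The RNA came from cells of wandering larvae of instar 3 raised at 25 degrees, and the 8 libraries form 4 groups of 2 replicates. All larvae carried yw and uas-kash.GFP, a GFP for sorting that is placed on the nuclear envelope. The drivers were nub.gal4 for the haltere nub and wing nub groups and tsh.gal4 for the haltere tsh and wing tsh groups. The gene nub is active in the distal part of the disc, the future blade or haltere bulb, and tsh in the proximal part. A group is therefore whatever cells express its driver, in bulk, and the controls of a comparison carry the same reporter. The labels do not say how many discs were pooled or whether replicates came from separate cohorts, so the p-values rest on a spread between libraries that may be technical only. The 17 ATAC-seq and 11 ChIP-seq samples of the series were not analysed here.

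Depth differed between groups: the 6 libraries of the other groups held between 15110163 and 17705451 counts, and the haltere nub libraries held 96525031 and 92342738, a ratio of 5.65 between the means. Wing tsh replicate 1 stood apart, with 5186 genes between 1 and 5 CPM (counts scaled to a common library total by TMM factors) against 1822 to 2312 in the other 7 libraries. The labels were followed by the marker genes. Ubx, the haltere Hox gene, lay between 768.9 and 2753 CPM in haltere and between 2.05 and 37.1 CPM in wing libraries. Antp was highest in wing tsh cells (999.0 and 1264 CPM) and lowest in haltere nub cells (17.3 and 20.3 CPM). The driver gene nub lay between 1036 and 1652 CPM in nub cells and between 10.3 and 38.7 in tsh cells, and tsh lay between 689.5 and 898.0 CPM in tsh cells and between 11.9 and 29.5 in nub cells. Summed levels of 8 disc epithelium genes were 5856 and 6018 CPM in haltere nub cells and 4831 to 5764 in the other libraries. This list holds nub and tsh, and its genes went both ways by the edgeR test used below. Against wing nub cells 3 were called lower and 3 higher, and against haltere tsh cells 1 lower and 5 higher.

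The core subunit genes were well expressed and were unequal in level. Of the 63, 60 passed a filter on low counts. ND-B8 stood at 0.0587 to 0.675 CPM, and ND-MNLL and UQCR-14 had no count in any library. ND-MNLL has the same span as CG45089 and UQCR-14 lies inside CG32576, and how the authors counted reads in overlapping genes is not given in the sources used here, so the absence of counts says nothing of the expression of these genes. Overlap with another gene's span held for 47 of the 87 members. ATPsynC, the subunit of the membrane ring that turns in complex V, made up 17.1% of the summed level of the core genes. ATPsynbeta, the catalytic subunit, followed with 6.60%, then the membrane subunit gene ATPsynF with 3.92%, COX6B with 3.82% and UQCR-C1 with 3.50%.

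Levels per kb of gene span also rose from the first to the last complex. The median was 17.2 CPM per kb in complex I, 20.0 in complex II, 26.5 in complex III, 53.0 in complex IV and 60.4 in complex V. Within complex I, ND-15 was lowest at 0.448 and ND-B16.6 highest at 36.9 CPM per kb. The range was narrow in complex II, from 16.5 for SdhC to 24.0 for SdhB. It ran from 11.8 for UQCR-11 to 51.3 for UQCR-C1 in complex III and from 25.9 for COX7C to 110.8 for COX7B in complex IV. In complex V it ran from 19.3 for ATPsyndelta to 168.6 for ATPsynF. Spans hold introns, which lowers the values of long genes such as ND-15 with 41305 bases, so the order of single genes on this scale is approximate.

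The nuclear genes of the chain were lowest in the distal cells of the haltere. Summed over the core genes, the level was 2552 and 2529.7 CPM in haltere nub cells. It was 3581 and 3294 CPM in wing nub, 2971 and 3564 in wing tsh and 3415 and 3365 in haltere tsh cells, so neither haltere nub library reached the range of the other 6. The mean was 26.1% lower in haltere nub than in wing nub cells and 25.0% lower than in haltere tsh cells. An exact permutation test of 2 against 2 libraries cannot give a two-sided p below 0.333, and the tests below are therefore per gene, in a model fitted to all genes. In bulk RNA, fewer cells of a type and less RNA per cell cannot be told apart.

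Summed by complex, the levels were lower in haltere nub cells by unequal amounts, and the differences between complexes were not tested. Complex V stood at 1017 and 1019 CPM in haltere nub cells and between 1282 and 1547 in the other libraries, a mean 31.7% below wing nub cells. Complex II stood at 138.3 and 133.9 CPM against 144.4 to 208.0 (30.0% below wing nub), and complex IV at 473.8 and 459.0 CPM against 535.4 to 695.2 (26.6%). Complex I stood at 662.2 and 652.7 CPM against 749.3 to 866.3 (19.6%). In complex III the summed haltere nub levels, 260.7 and 264.9 CPM, lay inside the range of the others, 260.5 to 316.4. The lowest value was in wing tsh replicate 1. This sum holds UQCR-11, which had 75.4 and 78.3 CPM in haltere nub cells and 47.7 to 67.8 in the others. Of the 5 complex III genes that passed the filter, 4 had both haltere nub libraries below the other 6.

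**Figure D1:**
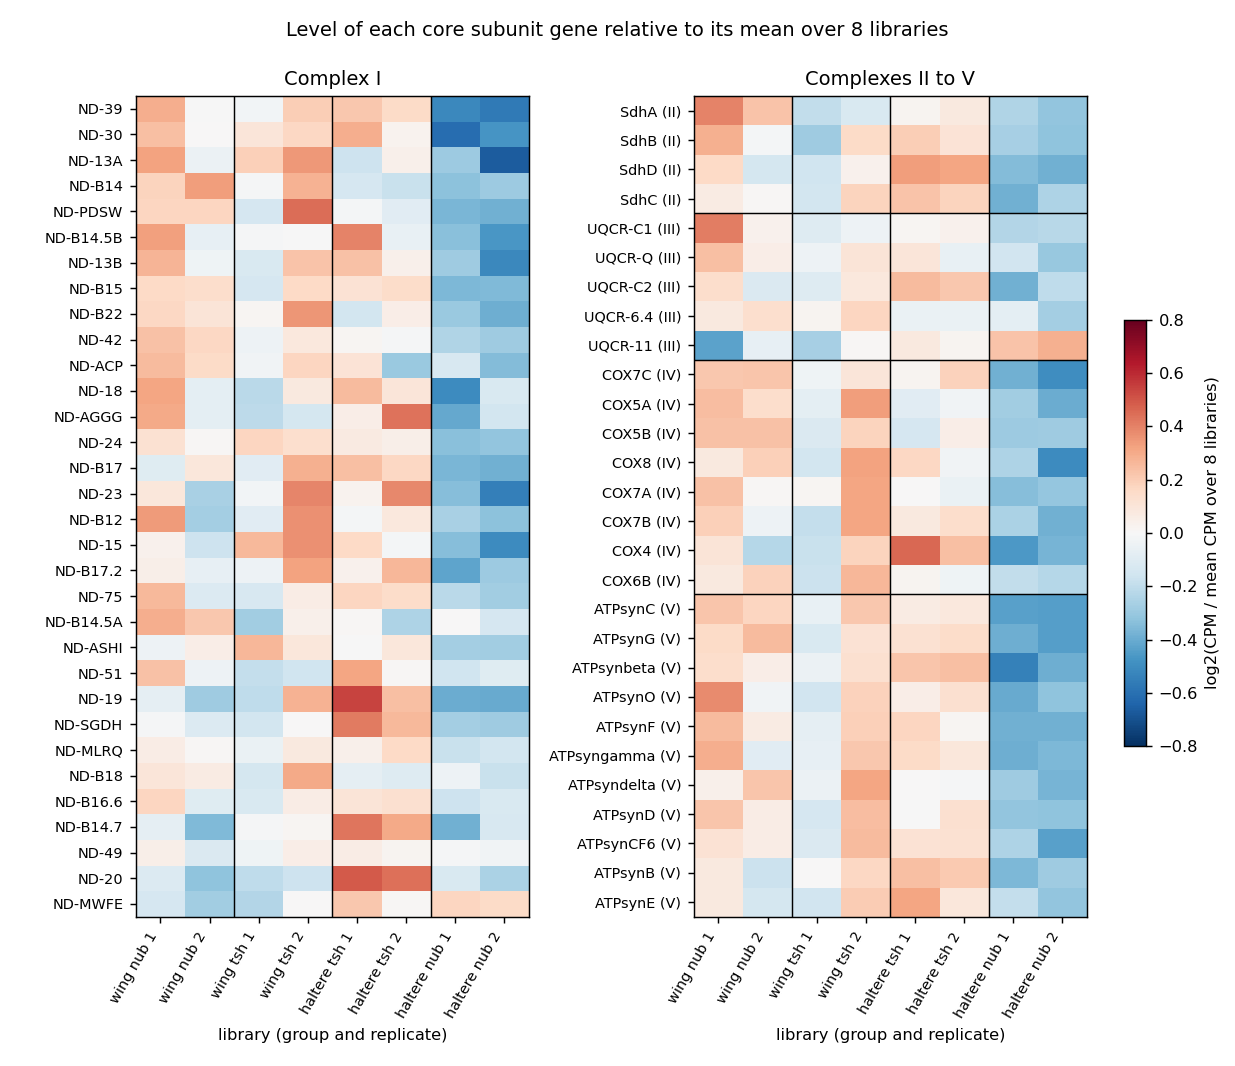
Each row is a core subunit gene that passed the filter and each column a library, and the colour is log2 of the gene's CPM over its mean in the 8 libraries, so blue is below the mean. The haltere nub columns are blue for most rows, with both libraries below the other 6 in 47 of 60 genes, and UQCR-11 is the gene with both above.

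Gene by gene, both haltere nub libraries were below the other 6 libraries in 47 of the 60 core genes that passed the filter and above them in 1, UQCR-11. Among all 11198 genes tested the shares were 17.1% below and 13.5% above. The pattern held for all 11 genes of complex V that passed and all 8 of complex IV. It held for 21 of 32 in complex I, 3 of 4 in complex II and 4 of 5 in complex III. By group means, haltere nub was the lowest of the 4 groups for 54 core genes. The highest group was haltere tsh for 29, wing nub for 19, wing tsh for 10 and haltere nub for 2 genes, ND-MWFE and UQCR-11. ND-MWFE, a small complex I subunit chosen here after its values were seen, did not pass the test in any comparison.

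The comparison of haltere nub with wing nub cells asked how the distal cells of the serially homologous discs differ. In it 29 core genes were called lower and 1 higher (edgeR quasi-likelihood test with Benjamini-Hochberg adjustment over 11198 genes, adjusted p under 0.05). Of all genes tested, 13.6% were called lower and 9.72% higher. The median log2 fold change of the core genes was -0.40, against -0.01 over all genes tested, and 56 of the 60 had a fold below 1. Lower calls were made for 9 of 11 genes in complex V, 5 of 8 in complex IV, 2 of 4 in complex II, 11 of 32 in complex I and 2 of 5 in complex III. With 2 replicates a group these calls depended on single libraries. Without haltere nub replicate 1 or replicate 2 there were 10 lower calls each, without wing nub replicate 1 there were 11, and with a trend on gene span removed there were 11 calls. The medians under the same 4 settings lay between -0.31 and -0.45.

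Complex V, the ATP synthase, had the highest share of members called lower in this comparison. ATPsynC had 629.6 and 609.7 CPM in wing nub cells, 519.9 and 628.0 in wing tsh, 566.9 and 573.9 in haltere tsh and 401.1 and 398.7 in haltere nub cells. Both haltere nub values were below the lowest of the other 6, and the log2 fold change against wing nub cells was -0.63 ± 0.10 SE (edgeR adjusted p = 0.00091). ATPsynbeta had 229.6 and 216.2 CPM in wing nub, 202.1 and 227.7 in wing tsh, 243.7 and 246.4 in haltere tsh and 143.7 and 159.4 in haltere nub cells. Both haltere nub values were again below the other 6, with a change of -0.56 ± 0.09 SE (edgeR adjusted p = 0.00131). The small membrane subunit genes ATPsynG (-0.62 ± 0.10) and ATPsynF (-0.54 ± 0.10) were also lower. Among the members, the 3 genes of the F1 part (ATPsynbeta of the catalytic head, and ATPsyngamma and ATPsyndelta of the central stalk) and 6 of 8 genes of the peripheral stalk and membrane part were called lower. The calls of ATPsyngamma and ATPsyndelta were each lost in 3 of 8 fits that left out 1 library. The summed level of the mtDNA-encoded complex V genes, at 535.5 and 589.6 CPM in haltere nub cells, lay inside the range of the other libraries, 534.9 to 659.3 CPM.

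The catalytic head also holds an alpha subunit, encoded by blw, whose symbol lies outside the rule. The gene blw had 390.2 and 327.0 CPM in wing nub, 305.6 and 346.9 in wing tsh, 335.7 and 314.1 in haltere tsh and 159.6 and 178.7 in haltere nub cells. Its log2 fold change against wing nub cells was -1.08 ± 0.11 SE (edgeR adjusted p = 4.49e-05). The genes of both partner subunits of the head were thus lower, by unequal amounts that were not compared by a test. In haltere nub cells the alpha gene stood at 169.1 ± 13.5 and the beta gene at 151.5 ± 11.1 CPM (SD, n = 2). In wing nub cells the beta gene stood at 222.9 ± 9.46 CPM (SD, n = 2), below both values of the alpha gene. The gene sun, for the epsilon subunit, had a change of -0.23 and did not pass the test.

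In complex II, SdhA, the flavoprotein that oxidises succinate, had 124.9 and 110.9 CPM in wing nub, 82.6 and 87.0 in wing tsh, 96.4 and 100.2 in haltere tsh and 80.3 and 76.3 in haltere nub cells. It was highest in wing nub cells, and its change of -0.59 ± 0.09 SE had the smallest adjusted p of the core genes in this comparison (edgeR, 0.000681). SdhB, the iron-sulfur subunit, was also called lower, with 31.0 and 29.7 CPM in haltere nub against 45.3 and 36.7 in wing nub cells. One of its haltere nub values was above the 30.5 CPM of wing tsh replicate 1. The membrane anchor genes SdhC (-0.35) and SdhD (-0.38) did not pass the test here.

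Complex IV gave COX7C (-0.66 ± 0.10) and COX5B (-0.52 ± 0.11) among the 10 core genes with the smallest adjusted p. Both encode nuclear subunits that surround the mtDNA-encoded catalytic core. COX7C had 34.0 and 31.5 CPM in haltere nub cells and 43.3 to 51.7 CPM in the other 6 libraries, a gap larger than the spread among those 6. COX5B had 57.2 and 57.4 against 63.5 to 82.2 CPM. COX5A, COX7A and COX8 were called lower as well, while COX4, COX6B and COX7B were not.

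Complex I was less uniform. ND-39 (-0.69 ± 0.12, edgeR adjusted p = 0.00169), ND-30 (-0.67 ± 0.14) and ND-42 (-0.46 ± 0.10) led its lower calls. ND-39 had 26.7 and 25.8 CPM in haltere nub cells and 37.8 to 47.0 in the other libraries. ND-30, a subunit of the arm that hands electrons to ubiquinone, had 10.1 and 11.1 against 15.4 to 18.8 CPM. Among the 7 nuclear genes of the catalytic core that is conserved from bacteria (ND-75, ND-51, ND-24, ND-49, ND-30, ND-20 and ND-23, listed from textbook knowledge after the values were seen), 2 were called lower, and 9 of the other 25 were. ND-49, also of this core, did not follow the pattern: it had 62.4 and 61.5 CPM in haltere nub cells against 57.9 to 65.3 in the others, with a change of 0.02 ± 0.09 SE.

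In complex III, UQCR-C1, a core protein of the matrix side, was lower, with 94.1 and 95.0 CPM in haltere nub against 146.8 and 113.4 in wing nub cells (-0.46 ± 0.11). UQCR-11, whose product is the hinge protein next to cytochrome c1, went the other way. It had 75.4 and 78.3 CPM in haltere nub cells, 47.7 and 61.4 in wing nub, 53.4 and 64.6 in wing tsh and 67.8 and 65.3 in haltere tsh cells. Its change against wing nub cells was 0.49 ± 0.12 SE (edgeR adjusted p = 0.0148), and the call was lost without either haltere nub library and without wing nub replicate 1. UQCR-11 spans 5463 bases near the end of 3L (25120709 to 25126171), and its change against haltere tsh cells was 0.21 ± 0.12, which did not pass the test.

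**Figure D2:**
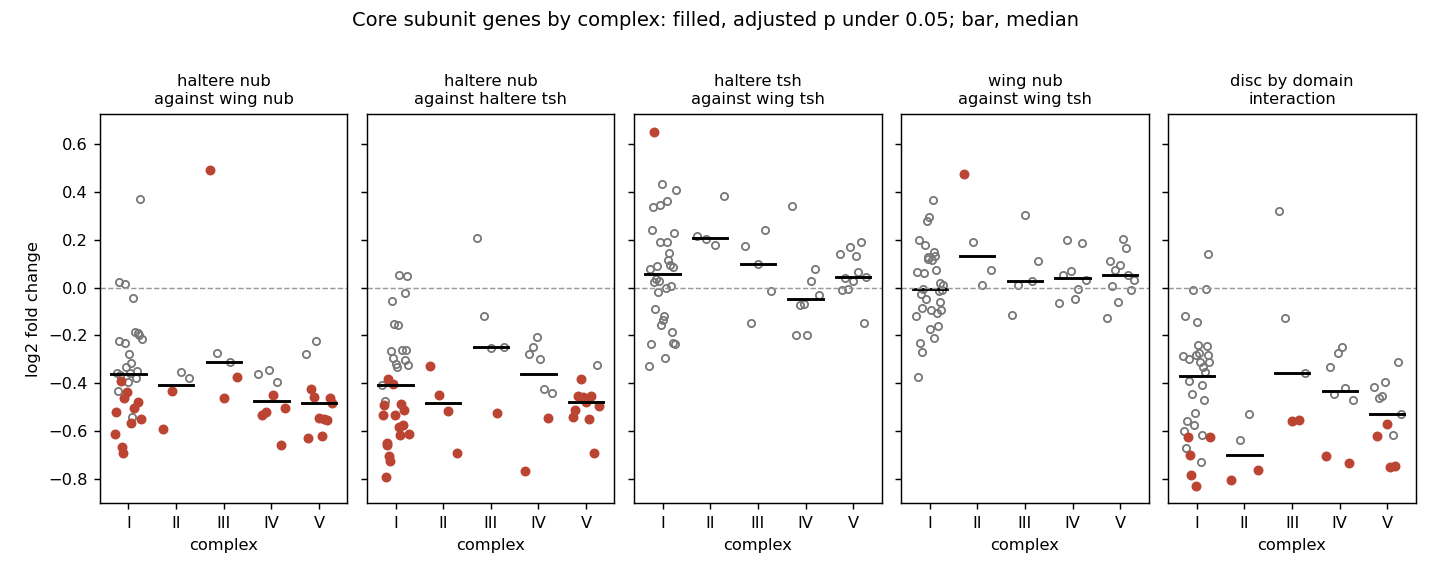
Each point is the log2 fold change of a core subunit gene, by complex, in the 5 contrasts; filled points passed an adjusted p of 0.05 and bars are medians. The medians of every complex lie below 0 in the contrasts of haltere nub cells and in the interaction, between -0.25 and -0.70, and between -0.05 and 0.21 in the contrasts of wing nub and haltere tsh with wing tsh cells.

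The comparison of haltere nub with haltere tsh cells set distal against proximal cells of the same disc, and shares the haltere nub libraries with the one above. It called 33 core genes lower and none higher. At an unadjusted p under 0.05 there were 48 lower and 0 higher, and DESeq2 called 25 lower and 0 higher. Of all genes tested, 15.0% were called lower and 9.96% higher. The core median was -0.45, against -0.01 over all genes. Lower calls were made for 10 of 11 genes of complex V, all 4 of complex II, 16 of 32 in complex I, 2 of 8 in complex IV and 1 of 5 in complex III. Without haltere nub replicate 1 or replicate 2 there were 13 lower calls each, without haltere tsh replicate 1 there were 15, without haltere tsh replicate 2 there were 19 and with the span trend removed there were 18.

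ATPsynbeta had the smallest adjusted p (-0.69 ± 0.09 SE, edgeR 0.000183), and ATPsynG (-0.55 ± 0.10), ATPsynC (-0.51 ± 0.10) and the stalk gene ATPsynB (-0.54 ± 0.11) were with it. COX4, a subunit that is high in haltere tsh cells, had 105.6 and 91.0 CPM there and 56.1 and 59.3 in haltere nub cells, a change of -0.77 ± 0.14. It stood at 82.7 and 65.8 CPM in wing nub and 68.1 and 86.9 in wing tsh cells. SdhD (-0.69 ± 0.13), ND-39 (-0.73 ± 0.12), ND-SGDH (-0.61 ± 0.10) and COX7C (-0.55 ± 0.10) completed the 10 core genes with the smallest adjusted p, together with ND-20. Of the 7 genes of the complex I catalytic core, 5 were called lower here, and 11 of the other 25. The median log2 fold changes of these sets were close, at -0.406 and -0.407.

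ND-20, which carries the iron-sulfur cluster next to the ubiquinone site, had a pattern of its own. It stood at 41.1 and 39.8 CPM in haltere tsh cells, 25.4 and 26.1 in wing tsh, 27.1 and 23.5 in wing nub and 26.9 and 24.6 in haltere nub cells. Haltere tsh cells were thus high and the other 3 groups overlapped. ND-20 was called lower in haltere nub than haltere tsh cells (-0.65 ± 0.11, edgeR adjusted p = 0.000974), with a change of 0.02 ± 0.11 between haltere nub and wing nub cells. The gene lies on X (15985473 to 15986808).

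The proximal cells of the haltere and wing discs gave 1 call among the members. In haltere tsh against wing tsh cells ND-20 was the sole call, 0.65 ± 0.11 SE higher in the haltere (edgeR adjusted p = 0.00656), where 3.26% of all genes tested were called in either direction. At an unadjusted p under 0.05 there were 1 lower and 8 higher core genes. The core median was 0.06, against -0.03 over all genes. The call of ND-20 was lost without haltere tsh replicate 1. There were 3 calls without wing tsh replicate 1 and 4 without wing tsh replicate 2, and the core median was -0.06 and 0.20 in these fits, so its sign is not settled by these libraries.

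Distal against proximal cells of the wing disc also gave 1 call among the members. SdhA was 0.48 ± 0.09 SE higher in wing nub than in wing tsh cells (edgeR adjusted p = 0.00344), and 13.8% of all genes tested were called in either direction. The core median was 0.03, against -0.01 over all genes. Its wing nub level was 117.9 ± 9.92 CPM (SD, n = 2), and both wing nub libraries exceeded all 6 of the other groups. Its call held in every fit that left out 1 library. At an unadjusted p under 0.05 there were 1 lower and 3 higher core genes and 3 lower copies, and DESeq2 called 1 core gene higher and 1 copy lower. Without wing tsh replicate 2 there were 10 calls, 7 higher and 3 lower.

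The difference between the discs was itself compared between domains by an interaction term, the log2 change from wing to haltere in nub cells minus that in tsh cells. It was called below 0 for 15 core genes and above 0 for none, with 32 and 0 at an unadjusted p under 0.05 and 13 and 0 by DESeq2. Of all genes tested, 8.10% were below and 7.32% above. The core median was -0.45, against 0.01 over all genes. SdhA (-0.81 ± 0.12, edgeR adjusted p = 0.00193), ATPsynbeta (-0.75 ± 0.13), ATPsynG (-0.75 ± 0.14), COX7C (-0.73 ± 0.14) and ND-39 (-0.79 ± 0.17) had the smallest adjusted p. All complexes were represented, with 5 genes of complex I, 2 each of II, III and IV and 4 of complex V. There were 6 and 4 calls without haltere nub replicate 1 and 2, 5 without haltere tsh replicate 1, 5 without wing nub replicate 1, 38 without wing tsh replicate 2 and 4 with the span trend removed.

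The subunits encoded by mtDNA stood closer to the other groups, although this difference from the nuclear genes was not tested. Their median log2 fold change was -0.23 against wing nub and -0.07 against haltere tsh cells. Of the 13 genes, 12 had a fold below 1 against wing nub cells and 8 against haltere tsh cells. Both haltere nub libraries were below the other 6 in 4 of the 13, and in 17.1% of all genes tested. Summed over the 13 genes, the mtDNA-encoded subunits stood at 15913 and 16430.0 CPM in haltere nub cells. These sums lay inside the range of the other 6 libraries, 15766 to 17999 CPM. The mean was 8.24% lower than in wing nub cells, while that of haltere tsh cells was 15826 ± 85.3 CPM and that of haltere nub cells 16172 ± 366 (SD, n = 2). Against wing nub cells mt:ND2 (-0.52 ± 0.10, edgeR adjusted p = 0.00476) and mt:ND4 (-0.37 ± 0.11, adjusted p = 0.0318) were called lower, and DESeq2 called 4 lower. Against haltere tsh cells mt:ATPase8 was (-2.11 ± 0.59), at 3.43 and 3.18 CPM in haltere nub cells, 7.90 and 20.4 in haltere tsh and 3.87 in wing tsh replicate 2. The abundant mt:CoI, for the catalytic subunit of complex IV, had 4551 and 4805 CPM in haltere nub against 5040.2 to 5754 in the other libraries, with changes of -0.26 and -0.11 that did not pass the test.

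The ratio of nuclear core counts to mtDNA-encoded counts, which is free of library scaling, was 0.160 and 0.154 in haltere nub cells. It was 0.206 and 0.185 in wing nub, 0.181 and 0.198 in wing tsh and 0.215 and 0.213 in haltere tsh cells. The haltere nub libraries thus stood below the other 6. By complex, this separation held in complex IV (0.0494 and 0.0465 against 0.0538 to 0.0630) and complex V (1.90 and 1.73 against 2.17 to 2.79). Complex I separated narrowly, at 0.150 and 0.142 against 0.151 to 0.204, and complex III overlapped, at 0.190 and 0.195 against 0.184 to 0.233. How far polyadenylated mtDNA transcripts are caught by the library kit is not given in the sources used here, so the ratio is read between libraries only.

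**Figure D3:**
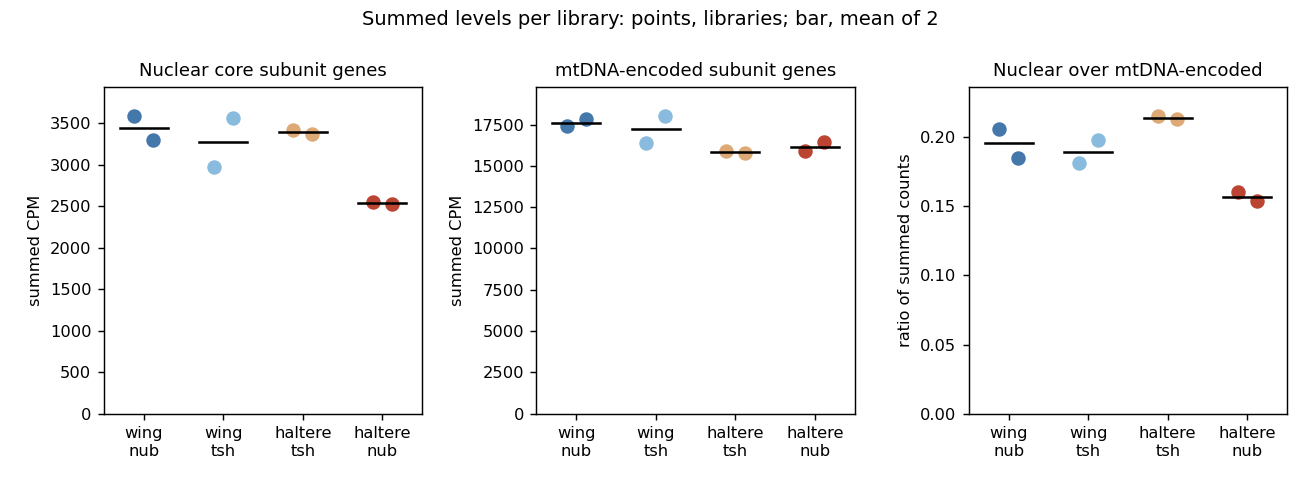
The left and middle panels plot summed CPM of the 63 nuclear core genes and of 13 mtDNA-encoded genes in each library, and the right panel the ratio of their summed counts; points are libraries and bars the means of 2. Haltere nub cells are lowest in the left (2552 and 2529.7 CPM) and right panels (0.160 and 0.154) and lie inside the range of the other libraries in the middle.

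Other nuclear genes of the chain, with symbols outside the rule, were also called in the lower direction. Of 9 that passed the filter, 6 were called lower against wing nub and 5 against haltere tsh cells, and none higher (0 also at an unadjusted p under 0.05 and by DESeq2, which called 5 lower in each). Besides blw these included ox, a small complex III subunit gene (-0.52 and -0.43), and Cyt-c-p, the somatic cytochrome c gene (-0.48 and -0.63). The lists of this and the following paragraph were taken from textbook knowledge with earlier results of these data known, and they support nothing by themselves. The 12 assembly factors had medians of -0.19 and -0.20 in the same comparisons, with 10 and 11 folds below 1. They gave 2 and 3 lower calls, where 13.6% and 15.0% of all genes were called lower. Scox, which delivers copper to complex IV, was among them (-0.64 and -0.90). Of 14 regulators of respiratory genes and mtDNA, 6 and 3 were called lower. Among them were bsf (-0.84 and -0.73), which binds mitochondrial RNA, and Myc, a growth regulator, at 135.1 and 173.3 CPM in haltere nub against 404.9 and 496.1 in wing nub and 207.5 to 295.4 in tsh cells.

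The TCA cycle, which shares complex II with the chain, gave 9 and 8 lower calls among 17 genes and none higher (0 also at an unadjusted p under 0.05 and by DESeq2, which called 8 and 7 lower), with Fum1 (-0.81 and -0.78), mAcon1 (-0.68 and -0.86) and Idh (-0.52 and -0.90) among them. Mitochondrial carriers, import and cristae genes gave 9 lower calls of 20 in each comparison and 1 higher. In these comparisons 13.6% and 15.0% of all genes tested were called lower, and 9.72% and 9.96% higher. The chaperonin gene Hsp60A had 69.5 and 77.2 CPM in haltere nub against 114.5 to 170.0 in the other libraries (-1.12 ± 0.10 against wing nub cells, edgeR adjusted p = 1.5e-05). Ant2, an ATP/ADP carrier gene, was the higher one, with 42.1 and 43.5 CPM in haltere nub against 21.5 to 28.9 in the others. Its neighbour sesB, for the main carrier of the same kind, overlaps its span and had 398.0 and 437.5 against 548.3 to 665.9 CPM, so reads of the pair may be shared.

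Against wing nub cells, 13.6% of all genes tested were called lower and 9.72% higher. Of 13 glycolysis genes, 1 was called lower there, Ald1, and none higher, with a median of -0.07. At an unadjusted p under 0.05 there were 1 lower and 2 higher, and DESeq2 called 1 lower and 0 higher. Against haltere tsh cells 4 were higher and none lower, by edgeR and by DESeq2 (7 and 0 at an unadjusted p under 0.05), among them Pfk (1.06 ± 0.10), Pglym78 (0.74 ± 0.11) and Hex-A (0.60 ± 0.10). In that comparison 9.96% of all genes tested were called higher and 15.0% lower. In the wing disc 6 of the 13 were higher in nub than in tsh cells, where 667 of all 11198 genes tested were called higher. Pfk had 106.9 and 90.6 CPM in wing nub, 50.5 and 46.1 in wing tsh, 117.5 and 117.3 in haltere nub and 53.3 and 58.9 in haltere tsh cells. Pfk, which encodes phosphofructokinase, was thus high in the distal cells of both discs.

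Cytosolic ribosomal protein genes were also mostly called lower. Of 86, 64 were called lower against wing nub and 65 against haltere tsh cells, with medians of -0.57 and -0.50. The shares of all genes called lower were 13.6% and 15.0%. Their summed level was 31002 and 31171 CPM in haltere nub against 37684 to 47605 in the other libraries. The mitochondrial ones gave 22 lower calls of 71 against wing nub cells, with a median of -0.38. Against haltere tsh cells they gave 6, a share below the 15.0% of all genes called lower, with a median of -0.24. Whether the chain genes differed from these lists was not tested.

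**Figure D4:**
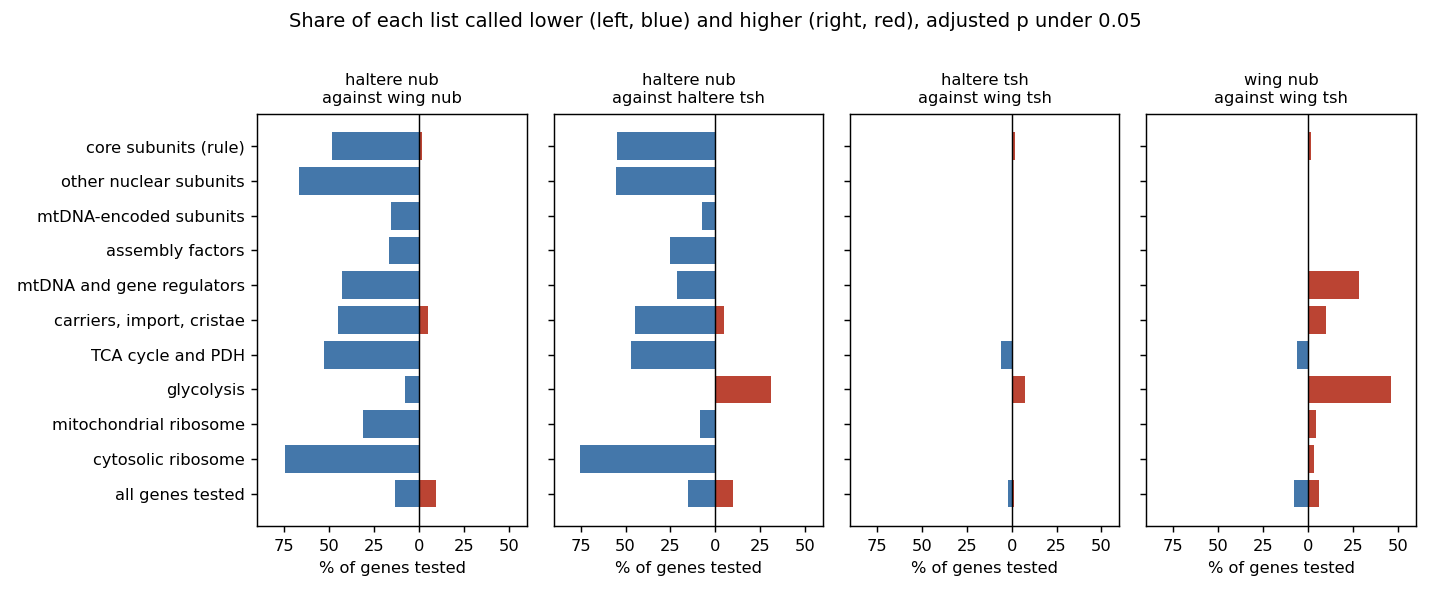
Bars give the share of the tested genes of each list that were called lower (left, blue) or higher (right, red) at an adjusted p under 0.05, in 4 comparisons; the lowest bar is all genes tested. Core subunits reach 29 and 33 of 60 lower in the comparisons of haltere nub cells, and glycolysis rises in the nub against tsh comparisons with 4 and 6 of 13 genes.

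Markers of other cell types moved with some of the groups, and their part in these results was not tested. The summed level of 8 differentiated muscle genes was 836.8 and 1085 CPM in haltere nub cells against 298.2 to 552.6 in the others. Nearly all of it was sls, at 823.4 and 1071 CPM. Mhc and Mlc2 stood at 0.704 and 1.497 and at 6.67 and 6.39 CPM in haltere nub cells. Against wing nub cells 7 of the 8 muscle genes had a fold above 1 (median log2 fold change 0.84), with 1 called higher and 0 lower. Against haltere tsh cells 5 had a fold above 1 and 3 below (median 0.09), with 1 called in each direction. The interaction was above 0 for all 8 (median 2.12), with 1 called. The 8 myoblast genes summed to 580.9 and 583.1 CPM in haltere nub against 458.2 to 601.8 in the others. Single genes of this list went other ways than the sum, with 4 called lower and 1 higher against haltere tsh cells (median log2 fold change -1.79) and 0 lower and 1 higher against wing nub cells (median -0.49). The 7 tracheal genes summed to 1975 and 1890 against 2372 to 3235 CPM, with 4 called lower and 2 higher against haltere tsh cells, and 6 neuron and glia genes to 347.6 and 347.1 against 369.6 to 419.0. Hemocyte genes (47.3 and 51.9 CPM, against 48.8 to 75.8) and fat body genes (4.76 and 3.22, against 2.70 to 24.6) were low everywhere. The highest fat body and hemocyte sums were in wing tsh replicate 1. Depth also differed. After thinning the haltere nub libraries to 15110163 counts, 25 core genes were lower and 1 higher against wing nub cells. Against haltere tsh cells 27 were lower. The shares over all genes in this thinned fit are not given here. Thinning evens out the number of counts only. The high depth was in both haltere nub libraries and in no others. In every comparison of haltere nub cells, the group therefore cannot be told apart from any difference in library handling.

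Of the 24 testis-type copies, 11 passed the filter. None of these was called against wing nub cells in either direction by edgeR or DESeq2. At an unadjusted p under 0.05 there were 0 lower and 1 higher. Of all genes tested, 13.6% were called lower and 9.72% higher in that comparison. Against haltere tsh cells these shares were 15.0% and 9.96%. The median SE against wing nub cells was 0.652 log2 units for the copies and 0.125 for the core genes. The lack of calls therefore says little of these copies. In the comparison with haltere tsh cells 1 was called, ND-51L1, and it was higher (0.48 ± 0.13 SE, adjusted p = 0.0167), with 21.8 and 20.7 CPM in haltere nub against 14.6 to 19.1 in the other libraries. This call was lost without either haltere nub library and without haltere tsh replicate 1. The counts of the better expressed copies may hold reads of a host gene. ND-51L1 lies inside Smurf (180.0 CPM on average), UQCR-11L inside Acsl (269.9 CPM), ND-49L inside Fur1 (420.0 CPM) and ND-51L2 inside Trpm (152.0 CPM). Per kb of span ND-51L1 reached 64.6% of its partner ND-51 and UQCR-11L 114% of UQCR-11, while ND-51L2 and ND-49L reached 15.6% and 13.1%. The spans weigh on these shares: UQCR-11 spans 5463 bases against 443 for UQCR-11L, and their mean levels were 64.2 and 5.95 CPM.

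The other copies were low, and a single read equals 0.0104 to 0.0662 CPM. ATPsynepsilonL, COX7CL and ND-20L passed the filter and lay between 0.528 and 2.28 CPM, with 9 to 169 reads in each library. ATPsynbetaL had 4.17 CPM in wing tsh replicate 1 and 0 to 0.955 in the other 7 libraries. SdhBL had 2.03 against 0.169 to 1.12 CPM, SdhCL 2.03 against 0.260 to 0.999 and COX4L 0.982 against 0 to 0.822. In all, 17 of the 24 copies were highest in wing tsh replicate 1, among them 12 of the 13 that did not pass the filter; the remaining one, COX5BL, had no count in any library. The same held for 17 of 23 testis marker genes and for 89.9% of the 5558 genes with counts that did not pass the filter. Of the 63 core genes, 3 were highest in that library.

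**Figure D5:**
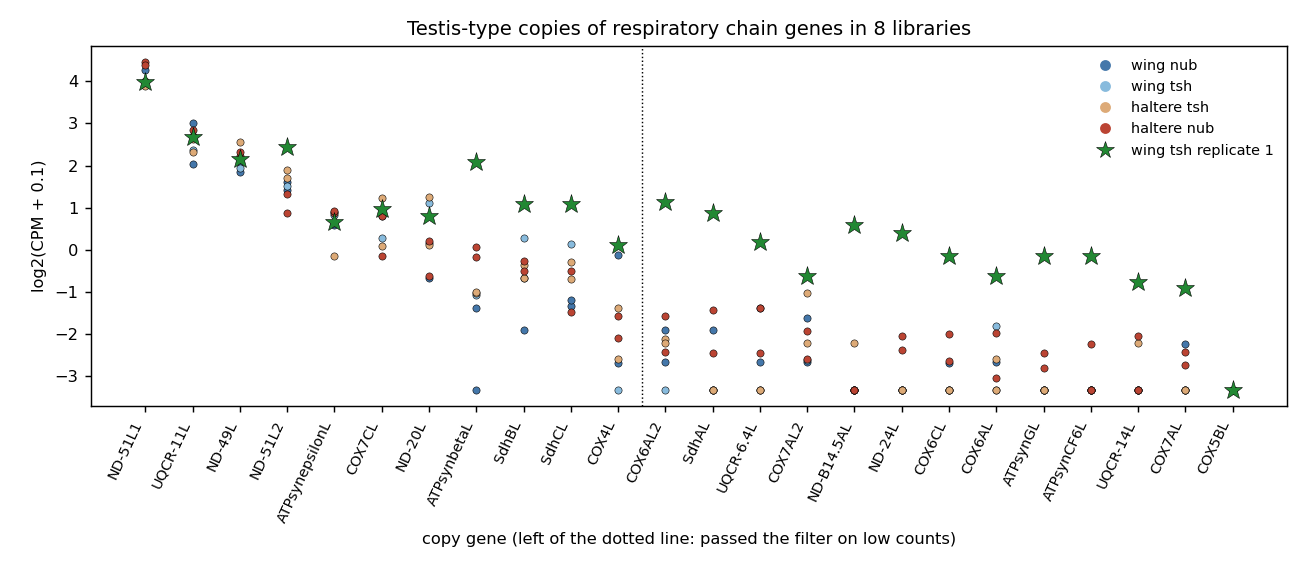
Points give log2(CPM + 0.1) of each copy in the 8 libraries, coloured by group, with wing tsh replicate 1 as a star; copies left of the dotted line passed the filter. The star is the highest point for 17 of the 24 copies, and ND-51L1 is the most abundant copy at 14.6 to 21.8 CPM.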

How the data were processed

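The deposited values are raw read counts per gene for 8 RNA-seq libraries, 1 table each, as the whole numbers and differing totals show. Per the labels, total RNA of sorted cells was TRIZOL-extracted and made into libraries with the Nugen Ovation Drosophila system. Per the submitters' processing notes, the series used HISAT2, Bowtie2, bcl2fastq and deepTools and the dm6 build, without versions or roles. Which tool and annotation release gave the counts, and whether strand was used, is not stated there, so overlapping, antisense and near-identical genes are uncertain. Symbols were matched for 17710 IDs and not for 97, and gene spans, on Release 6 plus ISO1 MT, for 17672.

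The test was that of edgeR 4.0.16 under R 4.3.3 (filterByExpr, TMM, robust quasi-likelihood fit of 4 groups over all 8 libraries, 4 residual degrees of freedom). The filter kept 11198 genes and left out 6609, and the common biological coefficient of variation was 19.9%. Tests were two-sided, adjusted by Benjamini-Hochberg over all genes kept and called under 0.05. Standard errors come from the coefficient and its F statistic. CPM was computed here from the deposited counts with TMM factors. The number of genes between 1 and 5 CPM and the worth of a single read used plain library totals instead. The chi-square per gene between replicates was 9 to 31.4, so no pair looked like copies of 1 library, which does not show that they came from separate animals.

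Alternatives were DESeq2 1.42.0, DESeq2 size factors, no filter, the compared libraries alone, a replicate block, thinned haltere nub libraries, a span trend removed, and each library left out. Members, lists and tests were chosen with earlier results of these data known. The genes named are up to 10 core members called in each direction with the smallest adjusted p per comparison, the highest and lowest per kb of each complex, copies that passed, up to 3 called genes per list and direction, genes of the chain lists, and Ubx, Antp, nub and tsh. Other names, such as those that fill in a complex, were chosen after their values were seen. A gene that was not called is not shown to be unchanged. Tables and figures were made with Python 3.11.15, pandas 2.3.3 and matplotlib 3.10.9.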

Additional observations from a re-analysis of the deposited data

Results flagged for a closer look

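In 15 core genes the change from wing to haltere differed between nub and tsh cells by the interaction test (edgeR, adjusted over 11198 genes), each with a negative value, meaning that the haltere stood lower relative to the wing in nub than in tsh cells. By complex, the interaction in log2 units was -0.79 for ND-39, -0.63 for ND-SGDH, -0.63 for ND-20, -0.70 for ND-30 and -0.83 for ND-AGGG in complex I. It was -0.81 for SdhA and -0.77 for SdhD in complex II, -0.56 for UQCR-C1 and -0.55 for UQCR-C2 in complex III, and -0.73 for COX7C and -0.70 for COX4 in complex IV. In complex V it was -0.75 for ATPsynbeta, -0.75 for ATPsynG, -0.62 for ATPsynC and -0.57 for ATPsynF. The calls of SdhA, ATPsynbeta, ATPsynG and COX7C held in every fit that left out 1 library, and the other 11 were lost in at least 1. With a trend on gene span removed 4 of the 15 were called, and COX7C was not among them (edgeR adjusted p = 0.0624). The genes reached their interaction by different routes. For ND-20 the change was 0.65 in tsh cells and 0.02 in nub cells, whereas for ND-30 it was 0.03 in tsh cells and -0.67 in nub cells. The gap criterion for an outlying sample needs at least 4 libraries in a group and was not applied.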

How the results depend on the processing

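The direction of the core medians held in the comparisons of haltere nub cells and in the interaction under all alternatives, from -0.31 to -0.50 against wing nub, -0.39 to -0.45 against haltere tsh cells and -0.31 to -0.62 for the interaction. Single libraries moved the counts of called members. Leaving out 1 library gave 10 to 39 calls for haltere nub against wing nub, 13 to 44 against haltere tsh, 4 to 38 for the interaction, 0 to 4 for haltere tsh against wing tsh and 1 to 10 for wing nub against wing tsh, where the lone library left in a group is assumed to vary like the others. Medians in the same fits lay between -0.0573 and 0.202 for haltere tsh against wing tsh, -0.0648 and 0.181 for wing nub against wing tsh, -0.616 and -0.313 for the interaction, -0.499 and -0.314 against wing nub and -0.446 and -0.386 against haltere tsh. Of the members called, 8 of 30, 11 of 34 and 4 of 15 were called in every such fit against wing nub, against haltere tsh and in the interaction. The span trend, added after seeing the data because the reference holds spans and no exonic lengths, gave 11, 19 and 4 calls in that order, of which 10, 19 and 4 were also called without it, and together with the replicate block 10, 18 and 3; the planned exonic versions were not run, and mtDNA genes got no value with the span trend. Without a filter there were 24 interaction calls, 2 for haltere tsh against wing tsh and 2 for wing nub against wing tsh, where DESeq2 also gave 2. The replicate numbers are not shown to pair samples: replicate differences correlated between groups at -0.131 to 0.171 over 7396 genes, and the replicate block gave 27, 31 and 11 calls. Crossing the wing tsh numbers in the block, for wing nub against wing tsh, gave 2 calls. Among values of named genes, 1761 kept direction and side of the threshold, 298 fell below it, 12 passed it and 0 reversed when called. The causes were not tested. A single read is worth 0.0104 to 0.0662 CPM, which limits most copies and, among core genes with counts, ND-B8.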

Other observations

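Core genes on X and on autosomes were set side by side without a test. Of all genes tested, 13.6% were called lower against wing nub and 15.0% against haltere tsh cells. Shares over all genes on X and over all autosomal genes are not given here, so the counts show no difference between chromosomes. Of 10 core genes on X that passed the filter, 2 were called lower in haltere nub than wing nub cells, with a median log2 fold change of -0.33, and of 50 on autosomes 27 were, with a median of -0.44. In haltere nub against haltere tsh cells 3 of 10 and 30 of 50 were called lower, with medians of -0.32 and -0.46. ND-20, the sole core gene called between haltere tsh and wing tsh cells, is among the 10 on X.

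Among the 60 core genes that passed the filter, 14 were called lower in neither comparison of haltere nub cells. Of all genes tested, 13.6% were called lower against wing nub and 15.0% against haltere tsh cells. The 14 include COX6B and COX7B, which are among the more abundant members at 103.4 to 145.0 and 68.4 to 111.3 CPM, and ND-49. COX6B had changes of -0.34 and -0.21 and COX7B of -0.39 and -0.43 against wing nub and haltere tsh cells. The edgeR adjusted p of COX7B against haltere tsh cells was 0.0615, near the threshold. For COX6B and COX7B both haltere nub libraries were below the other 6, while those of ND-49 lay among them. COX6B, COX7B and ND-49 were chosen after their values were seen.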
